A study of Mus musculus with 6 samples.

Results

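The transcriptome of resting C2C12 myotubes was described from the 3 arrays of a 6-array series on which the cells had received bovine serum albumin (BSA) alone. C2C12 is an established line of mouse myoblasts, the proliferating precursors of muscle fibres. The cells reached confluence in 20% fetal bovine serum, were held in 2% horse serum for 5 days to differentiate, and then stayed for 16 h in 1% BSA. All 3 arrays share this treatment, and no transgene or other agent is named for them. The other 3 arrays, of myotubes given palmitate, were not used, and nothing below compares the treatments. Of 22626 probe sets other than array controls, the 20380 that the platform annotation pairs with 1 gene symbol were ranked on each array, and they cover 12393 genes. The labels number the replicates without saying that they came from separate cultures, so the spread between arrays may be technical.

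When serum is withdrawn, myoblasts leave the cell cycle, switch on the basic helix-loop-helix factor myogenin, fuse into multinucleated tubes and assemble sarcomeres, the repeating units of thick myosin and thin actin filaments that contract. Sarcomere proteins come in isoforms encoded by separate genes, and developing muscle uses embryonic, slow and cardiac forms that adult fast fibres later replace. A culture also keeps unfused cells, so a bulk sample mixes myotubes with myoblasts that have not differentiated. In such a sample fewer cells of a type and less RNA per cell cannot be told apart.

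A percentile below is the share of the 20380 probe sets at or below a signal on the same array, averaged over the 3 arrays, with ± for the SD over the arrays (n = 3). A gene is represented by its brightest probe set. Bright means at or above the 95th percentile on all 3 arrays, a signal of 7651 to 7703, and dim means at or below the 40th on all 3, a signal of 307.8 to 339.3. By these rules 602 of 12393 genes (4.86%) were bright and 3906 (31.5%) were dim, and the median gene lay at percentile 55.5. Counts of bright and dim genes in a list are to be read against these shares of all genes. Of the probe sets themselves, 837 (4.11%) were bright and 6933 (34%) dim. Signals are on the linear MAS 5.0 scale and are given for replicates 1, 2 and 3 in that order. Because probe sets differ in how well they bind, a rank orders the brightness of probe sets and not the amounts of different transcripts. Dim is a rank and not a call of absence.

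The arrays had been scaled alike, with a trimmed mean signal of 1500.50 to 1500.54. Control probe sets at the 3' and 5' ends of Gapdh and actin, whose ratio grows as RNA breaks down, differed by 0.21 to 0.35 (Gapdh) and 0.47 to 0.60 (actin) on the log2 scale, most on replicate 2 for both. Over all probe sets ranks agreed least between replicates 2 and 3 (Spearman's correlation 0.945, against 0.950 for 1 and 2 and 0.948 for 1 and 3). Among genes above the 60th percentile, replicate 1 most often stood apart from the other arrays. It was the array farthest from the median for 67 of the 100 most variable genes above the 60th percentile, and for 2784 of all 5683 such genes (49.0%). Results that rest on it are given by array.

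The labelled cell type could be checked against its markers. Myogenin (Myog), the factor that commits myoblasts to differentiation, had signals of 25799.6, 19606 and 16098 and lay at percentile 98.9 ± 0.41. Skeletal alpha-actin (Acta1), the thin filament actin of muscle fibres, had 49212, 40038 and 34426. Embryonic myosin heavy chain (Myh3) had 14338, 8200 and 7474, which put it above the 95th percentile on replicates 1 and 2 and just below on replicate 3. Muscle creatine kinase (Ckm), which buffers ATP in fibres, had 4889, 2328 and 2459.6, at percentile 84.1 ± 5.9, and was the dimmest of the muscle markers. Col1a1, the alpha 1 chain of type I collagen and a marker of matrix-producing cells, was also bright, with 13799, 13405 and 9450.1. The muscle markers and the matrix marker were thus all in the upper range, and the label of myotubes was borne out by 3 bright or nearly bright muscle markers and by Ckm. Dmd, the dystrophin gene that links actin to the membrane, was dim, and each of its 3 probe sets lay low, at percentiles 22.5, 13.1 and 17.3.

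The brightest probe set of every array belonged to Lgals1, which encodes the sugar-binding protein galectin-1, with signals of 76405, 89564 and 69978. It was followed by Tpt1, the translationally controlled tumour protein, then by the ribosomal protein genes Rpl41 and Rps18 and by Eef1a1, the factor that brings transfer RNA to the ribosome. Beta-actin (Actb) and the secreted matrix protein Sparc came next, with 57837, 72239.9 and 54515 for Actb and 63263, 63711.5 and 56718 for Sparc. Of the 30 brightest genes, 16 were in the list of cytosolic ribosomal proteins, and Rps3a1, a ribosomal protein gene outside that list, was another. The remaining members of the 30 were Tmsb10, which binds actin monomers, the intermediate filament gene Vim, B2m of the class I histocompatibility complex, the type III collagen gene Col3a1, the smooth muscle actin gene Acta2, the myosin light chain gene Myl1, the membrane protein gene Ifitm3 and the ferritin gene Fth1. Apart from Acta2, a form that developing muscle also uses, Myl1 was the only member of the 30 that encodes a muscle protein of the sarcomere. Myl1 had signals of 47264, 51698 and 42892. The 100 brightest probe sets held 10.8% to 12.4% of the summed signal of an array.

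Sarcomere genes covered nearly the whole range of ranks, and isoforms of a protein often lay far apart. Over 5 lists (myosin heavy and light chains, actins, troponins with tropomyosins, and proteins of the Z-disc and M-band), 68 genes were measured, of which 28 were bright and 6 were dim. Their median percentile was 89.7, against 55.5 for all genes. Non-muscle forms, among them Myh9, Myl12a, Actb and Actg1, are members of these lists and enter every count of sarcomere genes below that uses them.

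Among myosin heavy chains, the motors of the thick filament, a pair was bright on all arrays out of 10 measured. Myh9, the non-muscle form found in most cells, had 17947, 38211 and 34875, so replicate 1 was the low array. Myh1, the adult fast 2X form, had 27777, 22527 and 21780. Its bright probe sets carry the suffixes a_at, given to probes shared by transcripts of a gene, and x_at, given to probes that may match other genes, at percentiles 99.0 and 99.2, and the Myh1 probe set without such a suffix lay at percentile 5.92. The neonatal form Myh8, the slow form Myh7 and the fast 2B form Myh4 were in the middle, at percentiles 54.2 ± 8.3, 52.2 ± 6.7 and 51.6 ± 6.2, and their arrays overlapped. The fast 2A form Myh2 had 128.5, 13.0 and 388, a spread too wide to rank it. The cardiac alpha form Myh6 and the smooth muscle form Myh11 were dim, at percentiles 17.7 and 19.4. On chromosome 11 the skeletal heavy chain genes lie in the order Myh3, Myh2, Myh1, Myh4 and Myh8.

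Light chains stabilise the myosin neck. Besides Myl1, the fast regulatory chain Mylpf (43762, 33693 and 26377), the atrial and embryonic chain Myl4 (42982.5, 28625 and 24854) and the non-muscle chain Myl12a (32574, 38837 and 35521) were bright. For Mylpf and Myl4 replicate 1 was the highest array, and for Myl12a the lowest. The slow and ventricular chains lay far lower, Myl2 at percentile 36.3 ± 12.6 and Myl3 at 25.6 ± 14.1, and the atrial chain Myl7 was near the floor with 22.3, 11.5 and 12.8.

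All 6 actin genes lay above the 80th percentile and 5 were bright. The smooth muscle form Acta2 (47061, 55393 and 44768), Acta1 and the cardiac form Actc1 (22679, 17518 and 17991) are the forms that developing muscle uses together. The bright probe set of Acta2 carries the suffix s_at. The Acta2 probe set without such a suffix was dim, with 141.4, 126.5 and 67.9 (percentile 22.3). Acta1 and Actc1 were highest on replicate 1, whereas Acta2 and the cytoplasmic forms Actb and Actg1 were highest on replicate 2. The enteric smooth muscle form Actg2 was the dimmest, at percentile 88.6 ± 2.3.

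Troponin is the calcium switch of the thin filament, with C binding calcium, I blocking the filament and T anchoring the complex to tropomyosin. Of 12 genes for troponins and tropomyosins 10 were bright. Slow and cardiac Tnnc1 had 33889, 24784 and 26010.3, and fast Tnnc2 had 27295, 20967 and 17246, so both forms of troponin C were at the top of the range. The slow inhibitor Tnni1 (28396, 18267 and 16667) and the fast inhibitor Tnni2 (19906, 9394 and 8557.5) were bright too, whereas the cardiac inhibitor Tnni3 was dim with 25.7, 28.2 and 72.2. Among tropomyosin anchors, the cardiac form Tnnt2 had 29048, 17035 and 19535, the fast form Tnnt3 16419, 8807.5 and 8407 and the slow form Tnnt1 8085, 3908 and 3769.9. Both troponin C genes, the slow and fast forms of I, and the fast and cardiac forms of T were thus bright. Of the 8 troponin genes, Tnnt1 passed the 95th percentile on replicate 1 only, and Tnni3 was the single dim one. Tnni3 lies next to Tnnt1 on chromosome 7, at percentiles 12.3 and 90.5, while the neighbouring Tnni2 and Tnnt3 on the same chromosome lay at 96.9 and 96.6. By their brightest probe sets, all 4 tropomyosin genes (Tpm1 to Tpm4), whose proteins lie along actin filaments, were between percentiles 97.4 and 98.8. Other probe sets of Tpm1 lay at 94.5 and 45.3, those of Tpm2 from 90.5 to 97.8 and those of Tpm3 from 62.9 to 94.8.

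**Figure D1:**
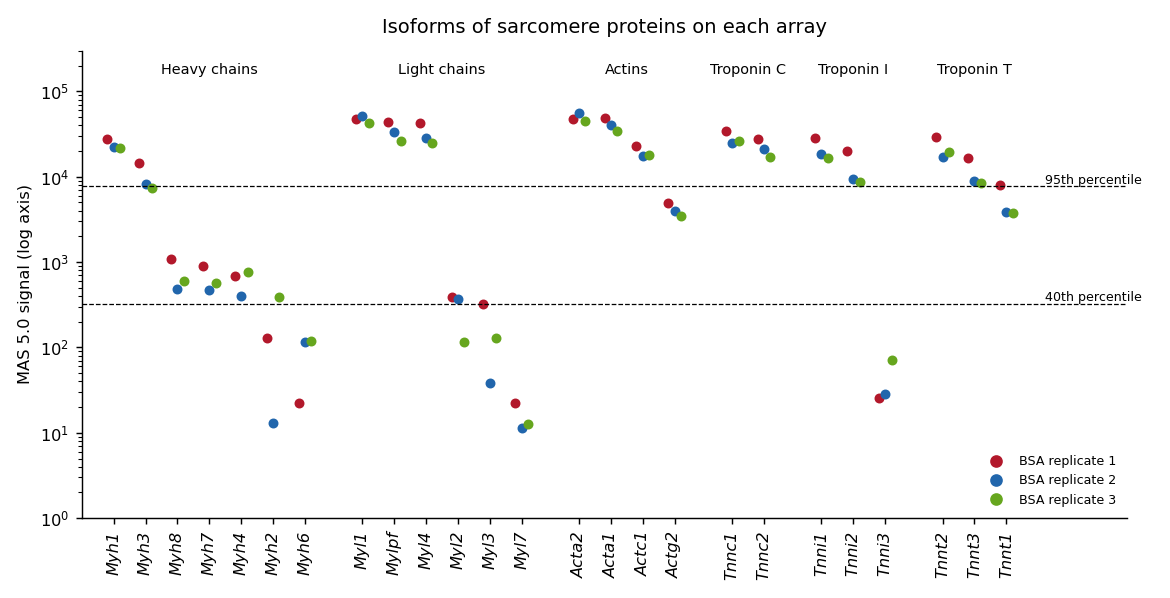
MAS 5.0 signal (log axis) of isoforms of sarcomere proteins on each of the 3 BSA arrays, 1 point per array, with dashed lines at the mean signals of the 95th and 40th percentiles. Fast, slow and cardiac troponins lay near or above the upper line except Tnni3, and Myh1 and Myh3 lay far above the other muscle heavy chains.

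Of 29 genes for proteins of the Z-disc, the M-band and the titin filament, 7 were bright and 1 was dim. The bright ones included Ankrd1, a stretch-responsive repeat protein (22680, 20705 and 20229), the myosin-binding protein gene Mybph (26785, 15479 and 12929.5), the small heat shock protein gene Cryab (16076, 10181 and 11355) and Actn3, the fast-fibre alpha-actinin (16529, 8012 and 8094). Actn2, the alpha-actinin of all striated muscle, had only 977, 508 and 582. Desmin (Des), the intermediate filament that ties neighbouring Z-discs together, had 19723.5, 7529.9 and 7151.5, so it was above the 95th percentile on replicate 1 only. Titin (Ttn), the giant spring of the sarcomere, lay at percentile 87.7 ± 3.2, and Myoz3, a Z-disc protein of fast fibres, was dim at 19.3.

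Short motifs that are textbook sites of muscle regulators were searched in the sequences around gene starts. The windows are RefSeq's, on mouse assembly GRCm38.p6, and run from 250 bases before to 50 after each annotated start. Motifs were searched on both strands as CAGCTG, an E-box of the kind bound by myogenic factors and its own reverse complement, as CATTCC, the core of the TEAD site, and by name as the CArG box of serum response factor and the MEF2 site. The initiator-like CTTTC was searched on the gene's strand within 20 bases of the start. The 250 bases before the start are printed for 3 bright sarcomere genes and 1 ribosomal protein gene, on the minus strand for Acta1 (chr8:123894776-123895025), Actc1 (chr2:114052876-114053125) and Myl1 (chr1:66945057-66945306) and on the plus strand for Rpl7a (chr2:26910557-26910806), with motif letters in capitals.
Acta1: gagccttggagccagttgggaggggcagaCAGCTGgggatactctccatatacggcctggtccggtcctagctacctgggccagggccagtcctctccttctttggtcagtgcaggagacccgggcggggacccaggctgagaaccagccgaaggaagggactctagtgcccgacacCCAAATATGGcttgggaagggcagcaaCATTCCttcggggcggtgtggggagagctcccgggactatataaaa
Actc1: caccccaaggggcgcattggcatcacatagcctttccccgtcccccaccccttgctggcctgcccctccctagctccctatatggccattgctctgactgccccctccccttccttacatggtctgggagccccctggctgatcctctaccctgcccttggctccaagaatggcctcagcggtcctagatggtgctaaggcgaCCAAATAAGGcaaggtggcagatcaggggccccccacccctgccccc
Myl1: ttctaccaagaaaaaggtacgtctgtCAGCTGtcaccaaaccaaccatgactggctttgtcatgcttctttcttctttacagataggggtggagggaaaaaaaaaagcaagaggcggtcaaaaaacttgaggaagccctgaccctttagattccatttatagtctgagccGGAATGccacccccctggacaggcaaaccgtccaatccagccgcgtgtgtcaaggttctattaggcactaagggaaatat
Rpl7a: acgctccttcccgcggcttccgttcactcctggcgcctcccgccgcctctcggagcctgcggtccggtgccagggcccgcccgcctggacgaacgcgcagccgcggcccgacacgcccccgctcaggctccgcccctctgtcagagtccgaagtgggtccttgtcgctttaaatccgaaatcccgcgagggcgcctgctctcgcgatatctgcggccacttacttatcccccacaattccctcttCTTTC

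In the Acta1 sequence the capitals mark CAGCTG beginning 221 bases before the start, a CArG box beginning 73 before and CATTCC beginning 46 before. Actc1 carries a CArG box beginning 47 bases before the start. In Myl1 the capitals mark CAGCTG beginning 224 bases before the start and CATTCC on the other strand, printed as its reverse complement, beginning 80 before. In Rpl7a they mark CTTTC in the last 5 bases before the start.

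Over the 66 windows of the 55 sarcomere genes that had one, 34.8% held CAGCTG, against 16.0% of the 12566 windows of genes on the array and 16.3% of all 32851 windows. CATTCC was in 31.8% of sarcomere windows against 13.1% for array genes and 14.7% of all windows. The CArG box was in 16.7% against 1.47% and 1.63%, and the MEF2 site in 10.6% against 1.96% and 3.19%. Among sarcomere genes with a mean percentile of at least 95, 13 of 25 had CAGCTG, as did 7 of 30 below that percentile. CATTCC was in 12 of 25 and 8 of 30. The order was the other way for the CArG box, with 3 of 25 and 7 of 30, and for the MEF2 site, with 1 of 25 and 6 of 30. Of the bright members of the sarcomere lists, Myl4, Tnnc2, Actn1 and the non-muscle Myh9 had none of these motifs. Over all bright genes of the array CAGCTG was in 14.98% and CATTCC in 12.8% of windows, no more than for array genes. In the 48 windows of the 40 cytosolic ribosomal protein genes that had one, CTTTC was in 27.1% against 4.62% for array genes and 5.49% of all windows, and CAGCTG in 6.25%. A window can hold several motifs, windows of a gene can overlap, and a match of letters is a description and not a site of binding.

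The regulators of myogenesis were spread over the range. Of 20 genes in the list 1 was bright (Myog, 5% against 4.86% of all genes) and 7 were dim (35% against 31.5%), shares near those of all genes, with a median percentile of 69.8. Myod1, which sets the muscle fate in myoblasts, had 5575, 4973.5 and 4579, with all arrays near the 91st percentile, at 91.1 ± 1.0. Myf5, a factor of proliferating myoblasts, had 1465, 2547 and 3041, with replicate 1 the lowest, and Myf6, the factor of mature fibres, was dim with 223, 142 and 194. Myf5 and Myf6 are neighbours on chromosome 10. Among their MEF2 partners, Mef2a, Mef2c and Mef2d lay at percentiles 94.99 ± 0.15, 89.2 ± 0.76 and 87.0 ± 1.1, and Mef2b was dim at 26.4. The inhibitors Id1 and Id3, which sequester partners of the myogenic factors, lay at 74.3 and 80.7. Pax7, which marks quiescent precursors, had 395, 444 and 238, and Pax3 was dim with 287, 139 and 268.

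Genes of cell fusion and adhesion had a median percentile of 89.0, with 2 of 18 bright and 3 dim. That median was 62.0 with the median probe set of each gene and 77.5 without probe sets with the suffixes a_at, s_at and x_at. Mymk, which encodes the fusion protein myomaker, had 12531.5, 8509 and 9033, and the tetraspanin gene Cd81 had 15016, 13476 and 14112. Bin1, which shapes the membrane tubules, had 13319.9, 7164 and 6052, and Itga7, the laminin receptor subunit of muscle, had 10434, 4733 and 4557. For both, replicate 1 was far above the other arrays. Itga4, an integrin subunit, was near the floor with 20.3, 14.2 and 27.7.

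The receptor for acetylcholine at the nerve contact changes during development from a subunit set with gamma to a set with epsilon. Here the alpha subunit gene Chrna1 was bright with 27303, 23528 and 21824, beta (Chrnb1) had 3294, 3205 and 2272 and gamma (Chrng) 5474, 2316 and 2524. The epsilon subunit gene Chrne was dim with 23.6, 6.90 and 189.8. Delta (Chrnd) had 704, 413 and 415, which put it near the middle of the range. Of all 13 genes of the synapse list, Chrna1 alone was bright (7.69% against 4.86% of all genes). In that list 3 were dim (23.1% against 31.5%), Chrne with Ache, the esterase of the synapse (21.0), and Colq, its collagen tail (31.2).

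Genes for calcium release and uptake had a median percentile of 62.9, with 4 of 22 bright and 3 dim. The bright ones were calreticulin (Calr), the calcium pump gene Atp2a2 (13856, 15034 and 12901), the calcium buffer Casq2 (16255, 11156 and 10116) and Fkbp1a, which binds the release channel. Atp2a2 encodes the pump of slow and cardiac muscle and also a widely expressed form, and its signal was not split between them. The fast-fibre pump Atp2a1 had 6197.5, 4583 and 3912 and the fast-fibre buffer Casq1 2374, 1578 and 1252. The skeletal release channel Ryr1 lay at percentile 77.9 ± 7.1, and the voltage sensor Cacna1s at 58.4 ± 9.9. The pump inhibitors phospholamban (Pln) and sarcolipin (Sln) were dim, at 32.2 and 13.5. In the dystrophin complex 1 of 15 genes was bright (6.67% against 4.86% of all genes), Cavin4, a muscle protein of caveolae. The complex had 3 dim genes (20% against 31.5%). Utrn, the relative of dystrophin found in immature fibres, had 3631, 3776 and 2816, and the brightest probe set of Dmd had 127, 270.5 and 16.8. The dystroglycan gene Dag1 lay at percentile 94.0 ± 1.9.

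Isoforms of energy metabolism were bright mainly in their widely expressed forms. For cytochrome c oxidase subunits with a muscle form, the ubiquitous Cox6a1 had 26136, 24619 and 22609 and the muscle form Cox6a2 3377, 1774 and 2008. Likewise Cox7a2 had 26694, 30348 and 26371.5 and the muscle form Cox7a1 544, 294 and 217.5, and Cox8a lay at percentile 97.0 ± 1.0 with the muscle form Cox8b at 68.4 ± 9.3. These are probe sets of different genes, so the ranks order brightness and not subunit amounts. The list of tissue isoforms of respiratory proteins had a median percentile of 95.2, and 72.6 without probe sets with the suffixes a_at, s_at and x_at. Whether the order of the ubiquitous and muscle forms depends on the type of probe set was not tested. Over all 79 measured genes of oxidative phosphorylation 39 were bright and 1 was dim, with a median percentile of 95.4. Uqcrb of complex III was the brightest of them with 37017, 51060.4 and 41511.

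Glycolytic genes ranged from the top to the floor, with a median percentile of 61.3. Of 29 measured, 7 were bright (24.1% against 4.86% of all genes) and 8 dim (27.6%, near the 31.5% of all genes). The brightest were Pgk1 (39714, 52119 and 41472), Aldoa, Ldha, Pkm, the muscle enolase Eno3 (18950, 13328 and 12723.5), Tpi1 and Pgam1. The muscle form Pgam2 lay at percentile 59.7 ± 6.0 and the muscle glycogen phosphorylase Pygm at 57.2 ± 8.3. Of the glucose transporters, Slc2a1, which serves basal uptake, had 4605, 4866 and 5537, and Slc2a4, the insulin-responsive form, was dim with 191, 268 and 35.6. Forms of other tissues were dim, among them the liver forms Gys2, Pygl and Slc2a2 at percentiles 7.11, 17.2 and 7.43 and the sperm forms Pgk2 and Ldhc at 15.3 and 16.3.

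Among creatine kinases the split was not between widely expressed and muscle forms. Ckm and the brain form Ckb (3525, 1577 and 1933.5) lay in the upper range, both highest on replicate 1, and the mitochondrial forms Ckmt1 and Ckmt2 were dim at percentiles 16.1 and 18.4. Of 13 genes for fatty acid and oxygen binding proteins 8 were dim and 0 bright, and the median percentile was 23.7. The muscle fatty acid carrier Fabp3 had 1369.8, 779 and 636, the epidermal carrier Fabp5 3074, 4035 and 5553 and myoglobin (Mb), the oxygen store of fibres, 3664, 1337 and 1198. The fatty acid transporter Cd36 lay at percentile 58.0 ± 1.0.

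Cytosolic ribosomal proteins and actins had the highest medians of the 43 lists, both 99.7. This rested on the type of probe set: without those with the suffixes a_at, s_at and x_at the medians were 64.3 and 83.8, below matrix proteins (97.9) and troponins with tropomyosins (97.5), and that of elongation factors was 89.3. Of 46 cytosolic ribosomal protein genes 36 were bright, and the median on each array varied by an SD of 0.0197 percentile points. The remaining 10 lay below the 80th percentile, 3 of them dim. They included Rpl27a (943, 2372 and 2335.5) and Rps27 (703, 553 and 1793.5), whose arrays disagreed. Mitochondrial ribosomal protein genes formed a narrower and lower group, with 0 of 74 bright, 0 dim and a median percentile of 81.8. Of the elongation factors, Eef1a1 had 67300.2, 78348.5 and 62933, whereas Eef1a2, the form of mature muscle and neurons, had 166, 374.5 and 483.5. Proteasome subunits had 16 of 38 bright at a median of 94.9, and chaperones 9 of 20 at a median of 94.7, led by Hspa8 (41623, 48886 and 42494.5) and Hspa5 (26961, 34231 and 27878), the chaperones of the cytosol and the endoplasmic reticulum.

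Matrix and matricellular proteins were mostly bright, whereas collagens were spread over the range. Of 35 genes for matrix and matricellular proteins 20 were bright and 3 were dim, with a median percentile of 96.7. After Lgals1 and Sparc came fibronectin (Fn1) with 40551, 48479 and 37789.5, the proteoglycan gene Bgn with 36266, 38153 and 33784 and the protease inhibitor gene Timp1 with 34687.5, 32314 and 27141. Among 36 collagen genes, 6 were bright (16.7% against 4.86% of all genes) and 14 dim (38.9% against 31.5%). Their median percentile was 37.8, below that of all genes. The bright ones were Col3a1 (50247, 60054 and 49329), Col1a2 (35831, 38927 and 31984.5), Col5a2, Col5a1, Col1a1 and Col6a1 of the microfibrillar type. The basement membrane chains Col4a1 and Col4a2 lay at percentiles 94.4 ± 0.87 and 88.6 ± 1.4, while Col2a1, the collagen of cartilage, had 310.2, 280.2 and 234 and Col9a2 lay at 3.57. Lum and Dcn, small proteoglycans of fibroblasts, lay at percentiles 11.2 and 79.4. Of 13 fibroblast markers 2 were bright (Col3a1 and Col1a1) and 4 were dim (30.8%, near the 31.5% of all genes). Their summed signals were 75371, 83438 and 69403 over the arrays. Whether the matrix signal came from myotubes or from unfused cells was not tested.

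Genes of proliferation and of cell cycle exit were both well above the median. Of 31 cell cycle genes 3 were bright and 0 dim, at a median percentile of 81.0. The bright ones were Pcna, the clamp of DNA polymerase (17391, 25769 and 22223), Rrm2, which makes deoxynucleotides (13308, 20635 and 20317), and the helicase subunit gene Mcm7 (11967, 13024 and 13622). Mki67, a marker of cycling cells, had 4698, 5809 and 5840.3, and the mitotic kinase gene Cdk1 6044, 8122 and 7463. In the exit list 3 of 17 genes were bright and 2 dim, led by Cdkn1a, whose product blocks cyclin-dependent kinases as myoblasts leave the cycle, with 30245, 34905 and 29162. Rb1, the retinoblastoma gene, had 3881, 3708 and 4556, and Cdkn1c, another kinase inhibitor gene, had 405, 219 and 221. On the deposited scaling Pcna, Rrm2, Mki67 and Cdk1 were lowest on replicate 1, the array on which most sarcomere genes were highest. Markers of satellite cells, the stem cells of muscle, had 0 of 18 bright (against 4.86% of all genes) and 3 dim (16.7% against 31.5%). Their median percentile was 65.4.

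Imprinted genes, of which some transcripts or tissues use a single parental copy, were mostly low, with 2 of 22 bright (Gnas and Peg3) and 11 dim. Their median percentile was 32.4. Gnas was bright by 1 of its 4 probe sets, and the others lay at percentiles 2.56, 6.67 and 36.7. Igf2, an autocrine growth factor of differentiating myoblasts, had 3299, 2848 and 3341, and Dlk1 had 269.5, 27.3 and 185. Factors that muscle secretes had 3 of 20 bright: Fstl1 (24054, 24566 and 22655), Igfbp5 (10676, 10956.5 and 9835) and the chemokine gene Ccl2 (16741, 17452 and 15381). Il6 had 2655, 4911 and 3959.5, Fst, the antagonist of myostatin, 5004, 3408 and 3397.5, and Igf1 667, 1324 and 1387. Xist, the RNA that silences an X chromosome, was bright with 11405, 15119.7 and 15400.2, whereas the 6 measured genes of the Y chromosome lay between percentiles 5.14 and 23.5.

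Lists of other tissues lay near the floor. Over 240 genes of leukocytes, endothelium, adipocytes, epithelium, neurons and glia, liver, pancreas, germ cells, photoreceptors and lens, smell and taste receptors, and keratin-associated and skin proteins, 0 were bright and 196 (81.7%) were dim, at a median percentile of 20.1. The medians of the single lists ran from 15.2 for photoreceptor and lens genes to 29.0 for neuronal and glial genes. Scd1, the fatty acid desaturase on the adipocyte list, was the only one above the 80th percentile, with 4421, 4826.5 and 4672. The adipocyte-defining gene Adipoq had 16.1, 5.30 and 9.20, the endothelial Pecam1 8.40, 11.4 and 26.3 and the epithelial splicing factor gene Esrp1 5.30, 7.30 and 5.20. A level for comparison came from 27 control probe sets for Bacillus RNAs, whose median signals were 28, 35.6 and 37.3 and of which 0 lay above the 40th percentile on any array. Whether those RNAs were added is not given in the sources used here. Markers of cardiac muscle had 1 of 13 bright, Tnnt2, and 7 dim, among them Myl7, Myh6 and Tnni3, with a median of 22.7. Smooth muscle markers had 2 of 10 bright, Acta2 (only by its s_at probe set) and Tagln, and 4 dim (40% against 31.5% of all genes).

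**Figure D2:**
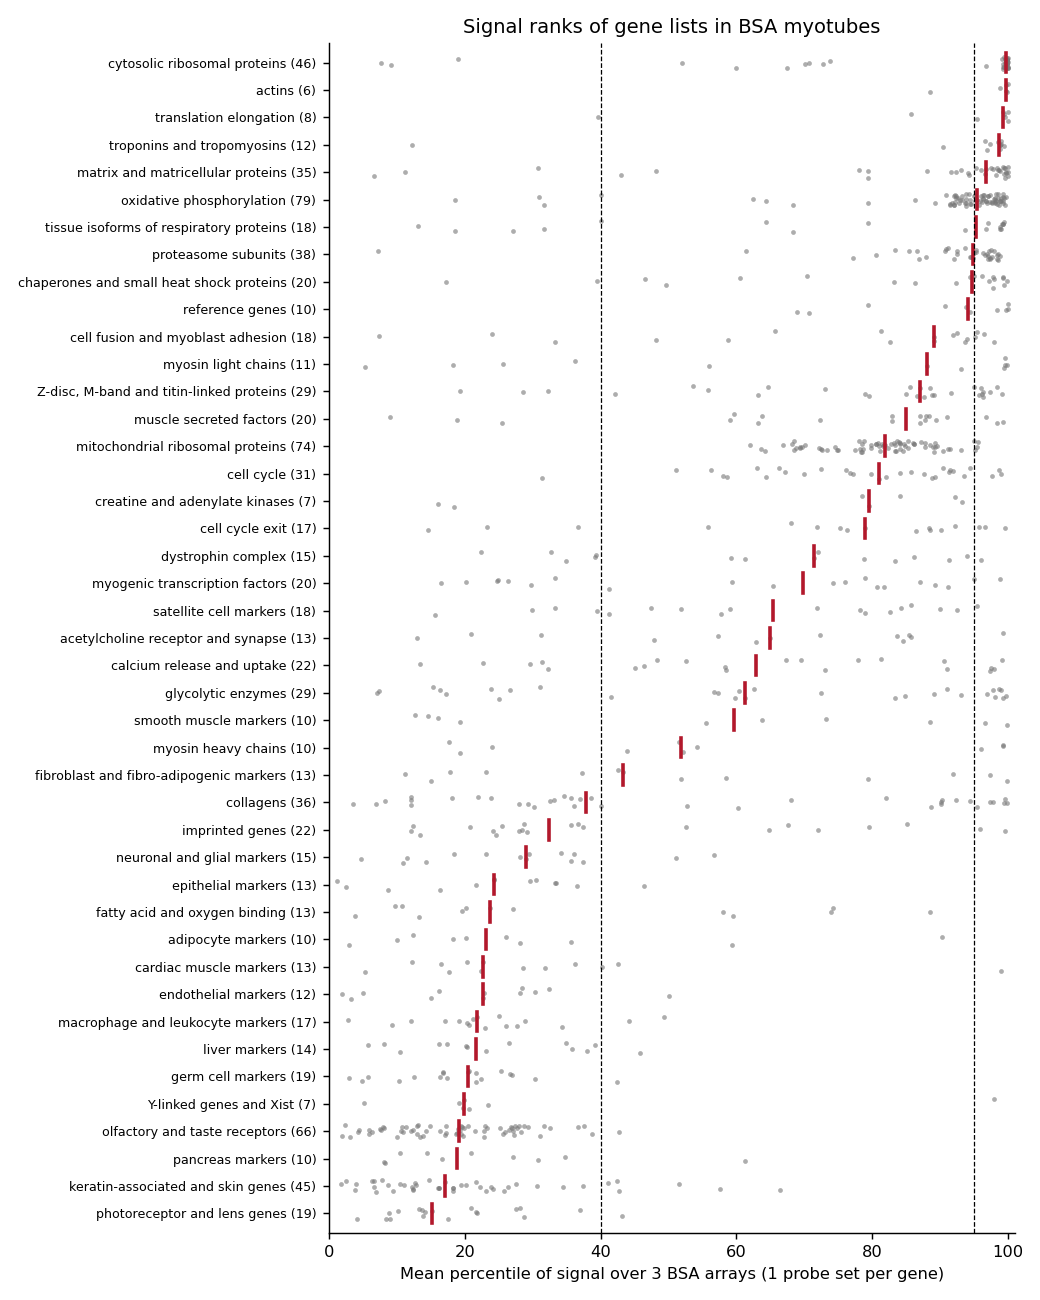
Mean percentile of signal over the 3 BSA arrays for each gene of 43 lists, 1 point per gene and a bar at the list's median, with the number of genes measured in parentheses and dashed lines at the 40th and 95th percentiles. Ribosomal proteins, actins and elongation factors had medians above 99 (64.3, 83.8 and 89.3 without probe sets with the suffixes a_at, s_at and x_at), and lists of other tissues lay at medians from 15.2 to 29.0.

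Ranks were most stable at the top and least stable in the low deciles above the lowest. Spearman's correlation between arrays over the 20380 probe sets was 0.950 for replicates 1 and 2, 0.948 for 1 and 3 and 0.945 for 2 and 3, as a description over probe sets that share their scaling. Among probe sets above the 40th percentile, replicates 2 and 3 were the closest pair (0.962, against 0.952 and 0.946). The brightest decile had a median SD of 0.17 on the log2 scale, a factor of 1.13, and 85.4% of its places were held by the same probe sets on all 3 arrays. In the 9th decile 56.3% were, in the 8th 40.3% and in the 2nd 11.5%, where the median SD was 1.40. The lowest decile kept more, 30.5%, with a median SD of 0.89. Of the 100 brightest probe sets of each array 84 were shared by all 3, but of the 100 dimmest only 3, and of the 1000 dimmest 171. No probe set was bright on an array and dim on another (0 of 20380). Order among dim probe sets was thus weak but not lacking.

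**Figure D3:**
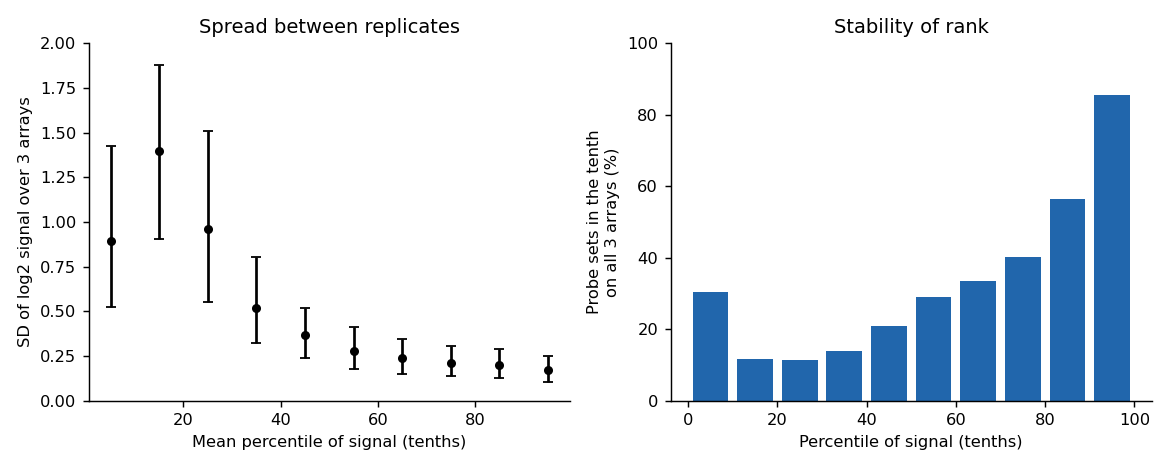
Left, SD of log2 signal over the 3 BSA arrays by decile of mean percentile, with the median as a point and the lower and upper quartile as a bar. Right, the percentage of each decile's places held by the same probe sets on all 3 arrays, which was 85.4% for the brightest decile, 11.5% for the next to lowest and 30.5% for the lowest.

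The steadiest genes above the 60th percentile were chosen by their SD, which is therefore a description. They were Nae1, Rps18, Dolk, Psph, Ndufaf1, Snhg8, Nras, Dusp12, Hint3 and Sptlc1, with SDs from 0.0023 to 0.0074 on the log2 scale. Nae1, a subunit of the enzyme that activates the ubiquitin-like protein NEDD8, had 5424, 5423 and 5438. Rps18 had 68687, 68802 and 68991 from its brightest probe set. Other probe sets of Rps18 were less steady, and 1 of them had 51009, 51009 and 39533. The most variable genes were led by Zfp207, a protein of spindle assembly (1523, 6444 and 8481), followed by Cklf, Il17rc, Srr, Gsdme and Ptp4a2, a protein tyrosine phosphatase (9481.5, 29564 and 32245). Sephs2, Mb, Slco3a1, Des, Ncapg2, Sh3rf1, Bbip1, Birc6 and Lin7c completed the 15. Mb and Des were 2 muscle genes among them, both high on replicate 1.

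Probe sets of the same gene often gave far apart ranks. Between arrays the median gap of a probe set was 3.94 to 4.56 percentile points. Of 4956 genes with several probe sets, the median range of their mean percentiles was 21.3 points, 771 (15.6%) spanned over 50 points and 1316 under 10. In 82 genes a probe set was bright and another dim. Anxa2, which encodes a membrane-binding annexin, ranged from 1.84 to 99.4, Rps18 from 4.36 to 99.99 over 6 probe sets, and Cox5b from 3.58 to 99.2. Gnas, Hmgn1, Cox17, Myh1, Eif3e, Gsn, Eif3h, Ddx39b, Txnl1, Ndufb9, Hspa9 and Micos13 had the next largest ranges, down to 90.1 points. The dim ranks of Myf6 and Chrne each rest on a single probe set.

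Most sarcomere genes had more signal on replicate 1 than on the other arrays. Of the 57 sarcomere genes above the 40th percentile, 42 (73.7%) had their highest signal on replicate 1, 11 on replicate 2 and 4 on replicate 3, where over all 7684 such genes the shares were 40.9%, 30.3% and 28.9%. The median difference of replicate 1 from the mean of the other arrays was 0.49 on the log2 scale for these genes, a factor of 1.41, against 0.033 for all genes. Des (19723.5, 7529.9 and 7151.5), Mb (3664, 1337 and 1198), Trim54, a titin-linked ligase (4293, 1735 and 1778), Actn3, Itga7, Tnni2, Tnnt1, Chrng and Ckm each had a signal on replicate 1 that lay far above both others. Quantile normalization and the percentile rank also gave 42 of 57, and scaling to hybridisation controls gave 43, where the share of all genes highest on replicate 1 also rose, to 52.4%.

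On the deposited scaling the shares differed between lists. The Z-disc list was highest on replicate 1 for 21 of 26 genes (median difference 0.56 log2), troponins and tropomyosins for 9 of 11 (0.52), glycolytic enzymes for 15 of 20 (0.34) and oxidative phosphorylation for 57 of 76 (0.24). Calcium handling genes were so for 10 of 17 (0.55) and the acetylcholine receptor list for 7 of 10 (0.33). Proteasome subunits were highest there for 24 of 37 (0.19), mitochondrial ribosomal proteins for 40 of 74 (0.092) and cytosolic ribosomal proteins for 14 of 43 (0.020). Against the hybridisation controls 27 of 43 cytosolic ribosomal protein genes were highest on replicate 1 (0.14), where over all genes 52.4% were. Cell cycle genes were lowest on replicate 1 for 18 of 30 (-0.13), where over all genes 35.7% were. Reference genes used for normalization were lowest there for 7 of 10 (-0.11). These low counts depended on the scaling: against the hybridisation controls 12 of 30 cell cycle genes were lowest and 12 highest on replicate 1 (-0.011), and 3 of 10 reference genes were lowest. Summed signals of the sarcomere lists were 895193, 784779 and 700788, and those of the cell cycle list 114918, 138258 and 136841. The control probe set for the B1 repeat had 22043 on replicate 1 against 12199.7 and 11950.1, and the 3' to 5' ratios of replicate 1 lay between those of the other arrays. The part of these differences in the result was not tested.

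**Figure D4:**
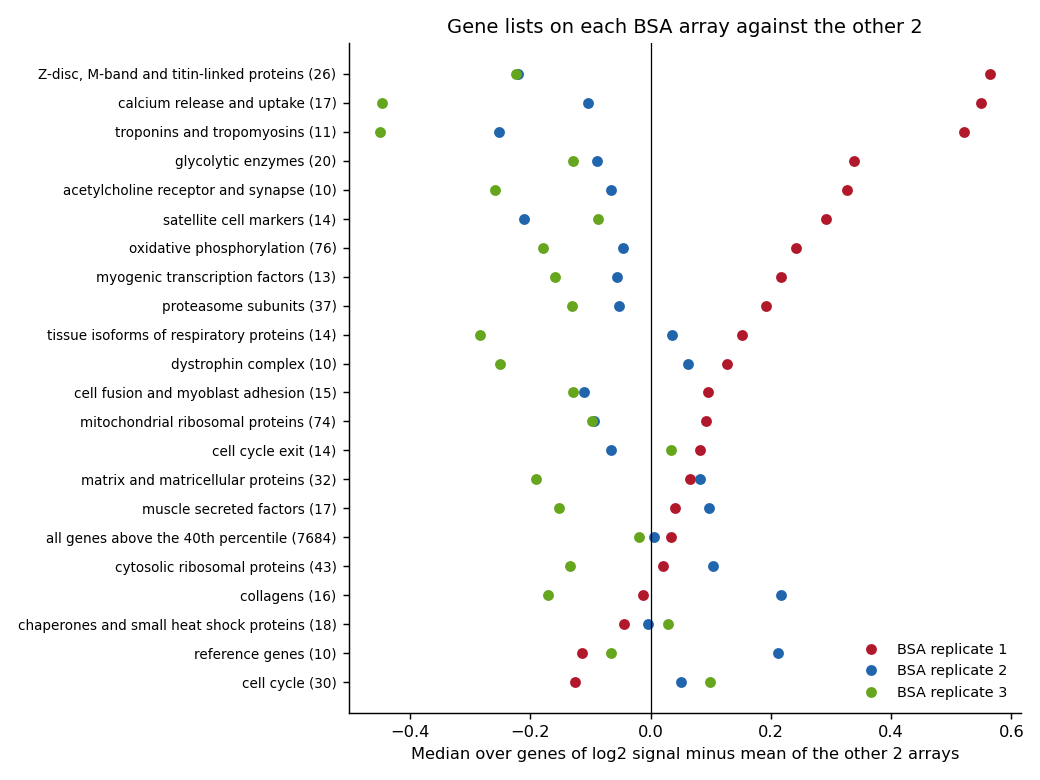
Median over the genes of a list of log2 signal on an array minus the mean of the other arrays, for each BSA array, with the number of genes above the 40th percentile in parentheses. Z-disc, calcium handling and troponin lists lay at 0.52 to 0.56 on replicate 1, and the cell cycle list at -0.13 (-0.011 when scaled to hybridisation controls).

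**Figure D5:**
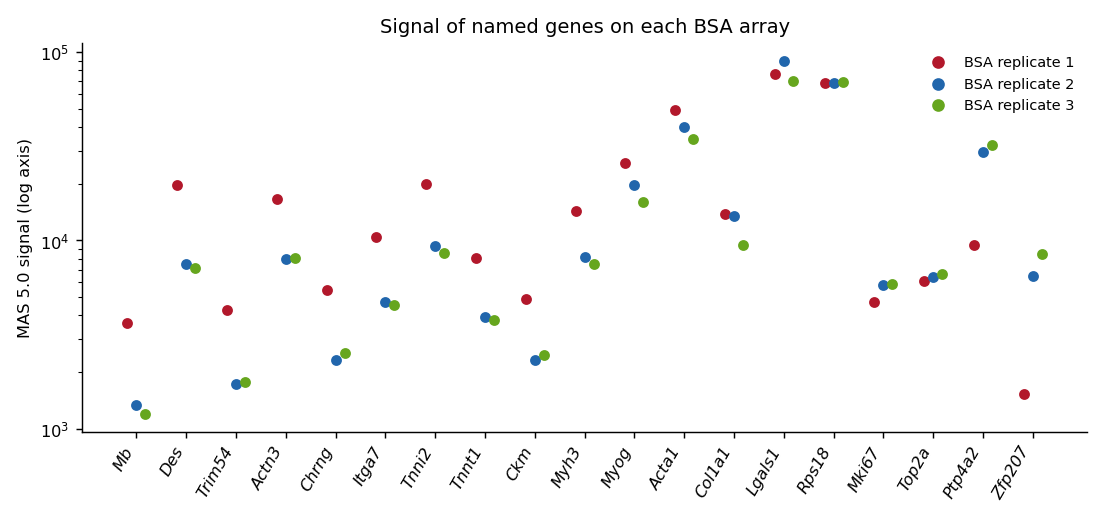
MAS 5.0 signal (log axis) of named genes on each of the 3 BSA arrays, 1 point per array. Replicate 1 was the highest array for Mb, Des, Trim54 and Actn3, the lowest for Ptp4a2 and Zfp207, and level with the others for Rps18.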

How the data were processed

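Biotin-labelled cRNA from 10 µg of total RNA was hybridised to Affymetrix mouse arrays, per the labels' protocols. The authors deposited signal intensities on a linear scale, and the submitters' processing notes name MAS 5 as their source. The software's settings are not given in the sources used here. Detection calls were not used. The signals needed no genome build, and genome coordinates served only the promoter windows (GRCm38.p6) and the order of genes on chromosomes. The 2% trimmed mean near 1500.5 on each array shows that the arrays had been scaled. Here the signals were ranked within each array and log2 transformed with no offset (pandas 2.3.3, numpy 2.4.6, scipy 1.17.1, matplotlib 3.10.9, Python 3.11.15). Gene symbols came from the platform annotation (20380 probe sets with 1 symbol, 691 with several, 1555 with none) and were checked against RefSeq, which changed 0. Promoter windows were RefSeq's and matched 9887 of 12393 genes. No contrast was fitted and no test was run, since 1 group is described, and the precision is limited by the number of arrays (3). The ranking was tested on data simulated with the same spread for every probe set. That setting does not cover the wider spread of dim probe sets, so it cannot show how stable dim ranks are. Alternatives were other limits, probe set types, representative probe sets, correlations, scalings and leaving out each array.

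The genes named were the 30 brightest, members of 43 gene lists by role, the 15 most variable and 10 steadiest genes above the 60th percentile, the 15 with the widest probe set ranges and members of other-tissue lists above the 80th. Genes were matched to lists by exact symbol. The members and lists were chosen with earlier results of these data known, and list members outside the 5 brightest and 5 dimmest were picked for their roles after their values were seen.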

Additional observations from a re-analysis of the deposited data

How the results depend on the processing

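The bright count of 837 probe sets became 1741 with the 90th percentile as the limit and 330 with the 98th, and the dim count of 6933 became 3150 with the 25th percentile. Leaving out probe sets with the suffixes a_at, s_at and x_at gave 4575 dim and 566 bright. Leaving out an array, which can only raise these counts, gave 853 to 943 bright and 7338 to 7389 dim. The lowest agreement between arrays was 0.945 by Spearman's correlation and 0.897 by Pearson's correlation of log2 signal, and leaving out an array gave 0.945 to 0.950. The median SD over arrays was 0.35 on the log2 scale, 0.24 above the 40th percentile and 0.25 to 0.31 without an array. A median SD from fewer arrays is lower at the same spread, so the last values cannot be set directly against 0.35. Medians of the 43 lists moved by at most 6.97 percentile points when an array was left out, but the choice of probe set mattered more. The dystrophin complex went from 71.4 to 34.9 with the first probe set by name, the myosin light chains from 88.1 to 56.0 with the median probe set, and without the suffixes named above smooth muscle markers went from 59.6 to 23.2 and cytosolic ribosomal proteins from 99.7 to 64.3. The count of sarcomere genes highest on replicate 1 was 42, 43 and 42 under quantile, hybridisation control and rank scaling, alternatives chosen after seeing the data. No paired analysis was possible because only 1 group is described and no contrast is fitted. No detection calls were used, so a dim rank is no call of absence, and ranks do not compare amounts between genes.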

Other observations

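The sequences around the starts of bright and dim genes had unlike counts of CG, given here as a description with no test. The median window of a bright gene held 23 CG dinucleotides in 300 bases and that of a dim gene 7, against 17 for all genes on the array. The sarcomere lists, with 28 of 68 genes bright, had a median of 6, whereas cytosolic ribosomal proteins had 21.5 and oxidative phosphorylation genes 19. TATAAA, searched on the gene's strand from 40 to 18 bases before the start, was in 7.58% of sarcomere windows, 0% of the 48 ribosomal protein windows and 2.40% of windows of array genes. The sarcomere windows thus had a median CG count next to that of dim genes. The cause was not tested.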
